A study of Mus musculus with 6 samples.

Results

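The genes of the basement membrane network, namely the 6 chains of type IV collagen (Col4a1 to Col4a6), Col18a1, the nidogens Nid1 and Nid2 and the perlecan gene Hspg2, were compared between melanomas grown at 2 sites of the mouse. The 10 genes were chosen by symbol from the 45777 genes of the deposited count table, and their values played no part in the rule. B16F10 cells, a mouse melanoma line, had been injected into the hind footpad or under the flank skin, and 1 RNA library was made from each of 3 tumors per site. The footpad bears the body's weight and the flank does not, but the paper states that the sites differ in other factors too. The comparison addresses whether expression differs between the sites, and load cannot be told apart from those other factors. All 6 tumors are labelled as grown in Foxn1-/- mice of 8 weeks, which lack a functional thymus, whereas the study's methods name C57BL/6J mice of another age for B16F10 grafts. Those methods describe injection of several sites of a mouse at the same time, so footpad and flank tumors may share hosts. The labels do not tie tumors to animals, and p-values measure the spread between tumors. The labels describe RNA from removed tumors, whereas the methods speak of tumor cells isolated from the implantation sites without saying how.

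Basement membranes are thin sheets of matrix that line epithelia and blood vessels and wrap muscle, nerve and fat cells. Laminin and type IV collagen each form a network, and nidogens and perlecan, a proteoglycan with heparan sulfate chains, link these networks to each other. The products of Col4a1 and Col4a2 form the type IV collagen of nearly all basement membranes, those of Col4a3, Col4a4 and Col4a5 form a network best known from the kidney glomerulus, and those of Col4a5 and Col4a6 form one found in skin and around smooth muscle. Type XVIII collagen carries heparan sulfate chains and gives rise to endostatin. In tumors, endothelial cells, pericytes, fibroblasts and the tumor cells themselves can make these proteins.

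Of the 10 genes, 8 had enough reads to be tested, 5 were higher in footpad tumors, 1 was lower, and 2 did not pass. Nid1 had the largest fold change of the 5, followed by Nid2, Col4a2, Hspg2 and Col4a1, and Col4a4 fell, being 3.37-fold lower. A gene was counted as changed when its adjusted p was under 0.05 in edgeR's quasi-likelihood test and its fold change was 2 or more, and over all 17210 genes tested these thresholds were passed upward by 2.89% and downward by 0.872%. DESeq2 called the same 6 genes under the same thresholds, which 6.71% of all genes passed upward and 2.05% downward in its fit. The median log2 fold change of the 8 genes was 1.15, against -0.0042 over all genes tested. Levels below are given as CPM, counts scaled to a common library total after TMM normalization, when tumors are compared for 1 gene, and as the authors' FPKM, which also divides by transcript length, when genes are compared with each other. Each library is 1 pool of RNA, in which markers of other cell types were also read, so more RNA per cell cannot be told apart from more cells of a type that makes it.

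Libraries held between 46529649 and 66364366 counted reads. The melanocyte and melanoma list, with Pmel and Tyrp1 among its 10 genes, summed to 10113 to 18758 CPM in footpad and 14902 to 25658 CPM in flank tumors. Of these 10 genes 9 had a negative log2 fold change, the median was -0.40, and none passed in edgeR or DESeq2. Flank replicate 1 had the highest sum of these markers and the lowest of the network genes, and the part of tumor cell content in the results was not tested. T cell markers summed to between 0.467 and 1.76 CPM, with Cd3d and Cd3g at 0 reads in every library. Footpad replicate 2 stood apart in markers of other tissue, with 499 CPM of 12 keratinocyte markers and 692 CPM of 12 skeletal muscle markers, against at most 28.8 and 80.2 CPM in the other tumors. Muscle fibers and epidermis carry basement membranes. The other tumors held these markers too, at lower levels. The fit was also repeated without footpad replicate 2, as it was without each other tumor. There Nid1 had a log2 fold change of 1.98, Nid2 1.45, Col4a2 1.44, Hspg2 1.38, Col4a1 1.11 and Col4a4 -1.70. All but Col4a1 (adjusted p = 0.0501, edgeR) stayed past both thresholds. Over all genes this fit called 639 higher and 197 lower, against 497 and 150 with all 6 tumors. Without footpad replicate 1, footpad replicate 3 or flank replicate 3, edgeR called 0 network genes, as given below. The part of the other tissue in the results was not tested.

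The 6 type IV genes lie in the mouse genome as 3 pairs, each pair facing away from a shared start region. Col4a1 (chr8:11198423-11312889, minus strand, GRCm38) and Col4a2 (chr8:11312805-11449287, plus strand) overlap at their first exons by 22 bases in the GENCODE annotation. Col4a4 (chr1:82448419-82587034, minus strand) and Col4a3 (chr1:82586921-82722059, plus strand) have 71 bases between their starts in GENCODE, and Col4a6 (chrX:141165403-141474095, minus strand) and Col4a5 (chrX:141475370-141689236, plus strand) are separated by 1274 bases in RefSeq. Start regions of the pairs with an abundant gene and sequence at hand are shown because these pairs differed in how they changed between the sites. The first sequence, 30 bases at chr8:11312801-11312830 on the plus strand, has in capitals the bases that both first exons share. The second is the stretch upstream of Col4a5, chrX:141475169-141475369 on the plus strand, with a CCAAT motif in capitals. Both are from the RefSeq promoter windows of GRCm38.p6, read 5′ to 3′.
Col4a1 and Col4a2: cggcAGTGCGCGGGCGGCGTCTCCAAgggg
Col4a5: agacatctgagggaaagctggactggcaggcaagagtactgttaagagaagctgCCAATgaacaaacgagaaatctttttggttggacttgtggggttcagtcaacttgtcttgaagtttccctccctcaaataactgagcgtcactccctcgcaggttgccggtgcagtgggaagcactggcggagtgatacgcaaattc

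In the order of replicates 1, 2 and 3, used throughout, the Col4a1 level was 835, 699 and 890 CPM in footpad tumors and 297, 510 and 391 CPM in flank tumors. Every footpad tumor was above every flank tumor, and the lowest level was in flank replicate 1. The mean was 808 ± 98.5 against 399.6 ± 107 CPM (SD, n = 3), and the log2 fold change was 1.02 with a standard error of 0.22 (adjusted p = 0.0481, edgeR). Both values sit close to the thresholds. Col4a2, whose product joins that of Col4a1 in the same trimer, was at 461, 332 and 403 CPM in footpad tumors and at 123, 206 and 149 CPM in flank tumors. Its groups did not overlap either, and its log2 fold change was 1.32 ± 0.23 (SE, adjusted p = 0.0267, edgeR). The order of the tumors within the flank group was the same for both genes, with replicate 2 highest and replicate 1 lowest.

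**Figure D1:**
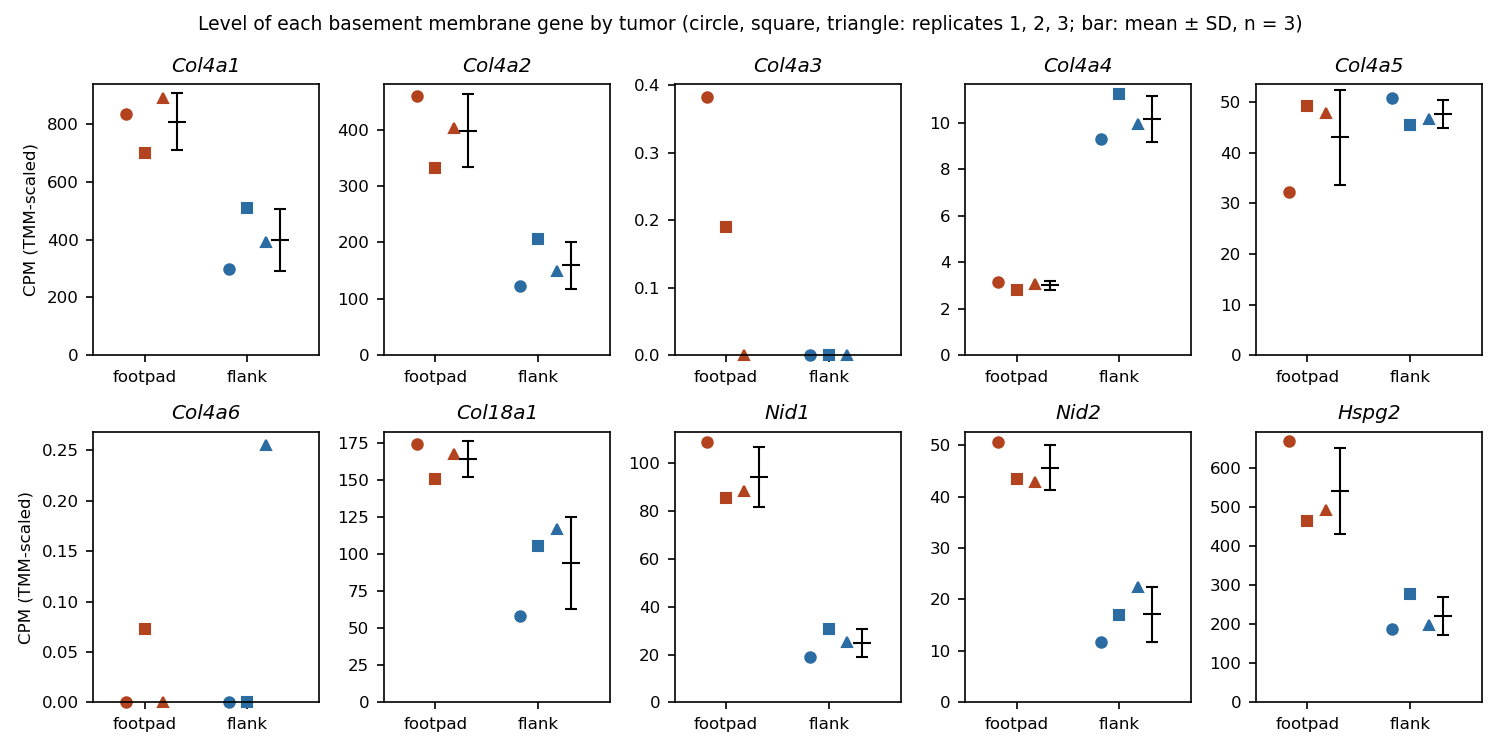
Level of each of the 10 genes in every tumor, in CPM after TMM scaling on axes that start at 0, with footpad tumors in red, flank tumors in blue, and circle, square and triangle for replicates 1, 2 and 3. Black bars give the mean and SD of 3 tumors, and are left out for Col4a3 and Col4a6, which had few reads. The 3 footpad tumors lie above all flank tumors for Col4a1, Col4a2, Col18a1, Nid1, Nid2 and Hspg2 and below them for Col4a4, and the groups overlap for Col4a5.

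Col4a4 went the other way. It was at 3.17, 2.80 and 3.08 CPM in footpad tumors and at 9.30, 11.2 and 9.94 CPM in flank tumors. The 3 tumors of each site lay close together, with a coefficient of variation of 6.35% in footpad and 9.74% in flank tumors, and the groups were well apart. Col4a4 was 3.37-fold lower in footpad tumors, with a log2 fold change of -1.75 ± 0.21 (SE, adjusted p = 0.0139, edgeR). These levels rested on 141, 192 and 151 reads in footpad and 539, 657 and 622 reads in flank tumors. Its neighbor Col4a3 had 17, 13 and 0 reads in footpad replicates 1, 2 and 3 and 0 reads in all flank tumors, and did not pass the filter on low counts. A count of 0 allows up to 3 reads, or 0.0479 to 0.0517 CPM in the flank libraries, and the footpad levels were 0.382 and 0.190 CPM in replicates 1 and 2. RefSeq models of Col4a4 and Col4a3 overlap by 114 bases. The paper names a stranded library kit, but whether the counting used strand is not stated. How reads of that stretch were assigned is therefore not known.

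Col4a5, the chain that takes part in both of the less common networks, was at 32.2, 49.2 and 47.8 CPM in footpad tumors and at 50.9, 45.4 and 46.8 CPM in flank tumors. The groups overlapped, and footpad replicate 1 was the lowest of the 6 tumors. Its log2 fold change was -0.15 ± 0.18 (SE, adjusted p = 0.647, edgeR), and 0.023 without footpad replicate 1. Col4a6 had 5 reads in footpad replicate 2, 16 reads in flank replicate 3 and 0 reads in the other 4 tumors, and was not tested. Of the 3 pairs, then, both genes were abundant and higher in footpad tumors at Col4a1 and Col4a2, the more abundant gene was lower at Col4a4 and Col4a3, and the more abundant gene did not pass at Col4a5 and Col4a6.

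The make-up of type IV collagen RNA was compared as the share of each chain in the summed FPKM of the 6 genes. Col4a1 held 64.0% ± 1.78 in footpad and 64.3% ± 2.27 in flank tumors (SD, n = 3), and the groups overlapped (two-sided exact permutation test, p = 0.9). Col4a2 held 35.2%, 31.2% and 30.5% in footpad tumors and 26.2%, 27.2% and 25.5% in flank tumors, so that all footpad tumors had a larger share. Col4a5 held 2.43%, 4.58% and 3.57% in footpad tumors and 10.7%, 5.95% and 7.92% in flank tumors. Col4a4 held 0.164%, 0.179% and 0.159% in footpad tumors and 1.39%, 1.01% and 1.16% in flank tumors. The shares of Col4a2, Col4a5 and Col4a4 did not overlap between the sites, each with an exact permutation p = 0.1, the smallest that 3 tumors against 3 allow, and 0.2 after adjustment over the 6 chains. Shares of 1 sum depend on each other, so these are not separate differences. In CPM, Col4a5 itself overlapped between the sites (log2 fold change -0.15). Col4a3 and Col4a6 held at most 0.0206% and 0.0424% in any tumor.

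**Figure D2:**
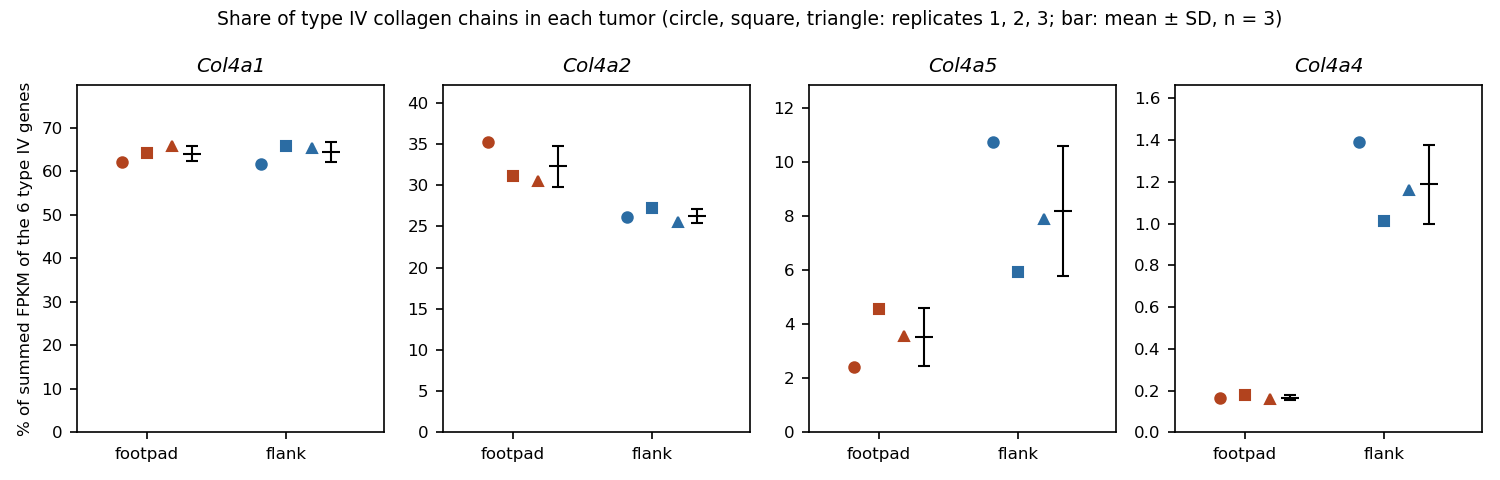
Share of 4 chains in the summed FPKM of the 6 type IV collagen genes, in percent, for each tumor, with the mean and SD of 3 tumors as black bars and an axis that starts at 0 in each panel. Col4a1 holds 61.7% to 65.8% at both sites, Col4a2 is above 30% in footpad tumors and below it in flank tumors, and Col4a5 and Col4a4 hold more in flank tumors.

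Both nidogens, which bind laminin and type IV collagen, were higher in footpad tumors. Nid1 (chr13:13437602-13512275) was at 109, 85.7 and 88.6 CPM in footpad tumors and at 18.8, 30.5 and 25.3 CPM in flank tumors. The groups did not overlap, and the lowest footpad tumor was more than 2-fold above the highest flank tumor. Nid1 was 3.79-fold higher in footpad tumors, with a log2 fold change of 1.92 ± 0.20 (SE, adjusted p = 0.00984, edgeR), and ranked 33 of 17210 genes by p. Nid2 (chr14:19751257-19811787) was at 50.6, 43.4 and 42.9 CPM in footpad tumors and at 11.7, 17.1 and 22.5 CPM in flank tumors. Its groups did not overlap, and its log2 fold change was 1.42 ± 0.24 (SE, adjusted p = 0.0253, edgeR). The 3′ end of Nid2 overlaps that of Rtraf on the other strand by 386 bases in RefSeq. How reads there were assigned is not known, as the counting's use of strand is not stated. Rtraf itself had 143 ± 19.3 CPM in footpad and 152 ± 17.1 CPM in flank tumors (log2 fold change -0.10, adjusted p = 0.736, edgeR).

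Hspg2 (chr4:137468751-137570630), which encodes perlecan, was at 668, 464 and 492 CPM in footpad tumors and at 188, 278 and 199 CPM in flank tumors. The groups did not overlap, and footpad replicate 1 was highest. The log2 fold change was 1.29 ± 0.22 (SE, adjusted p = 0.0269, edgeR). Col18a1 (chr10:77052178-77166530) was at 175, 151 and 168 CPM in footpad tumors and at 58.7, 106 and 117 CPM in flank tumors. Although all footpad tumors were above all flank tumors, its log2 fold change of 0.81 ± 0.25 (SE) did not pass (adjusted p = 0.102, edgeR). The flank tumors were spread widely for this gene, with a coefficient of variation of 33.1% against 7.55% in footpad tumors, and without flank replicate 1 its log2 fold change was 0.55. RefSeq lists starts of Col18a1 in 2 windows, and counts per gene do not tell its isoforms apart. In all, 6 of the 8 genes tested had every footpad tumor above every flank tumor, which held for 17.5% of all genes, and 1 had every footpad tumor below, which held for 14.9%.

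**Figure D3:**
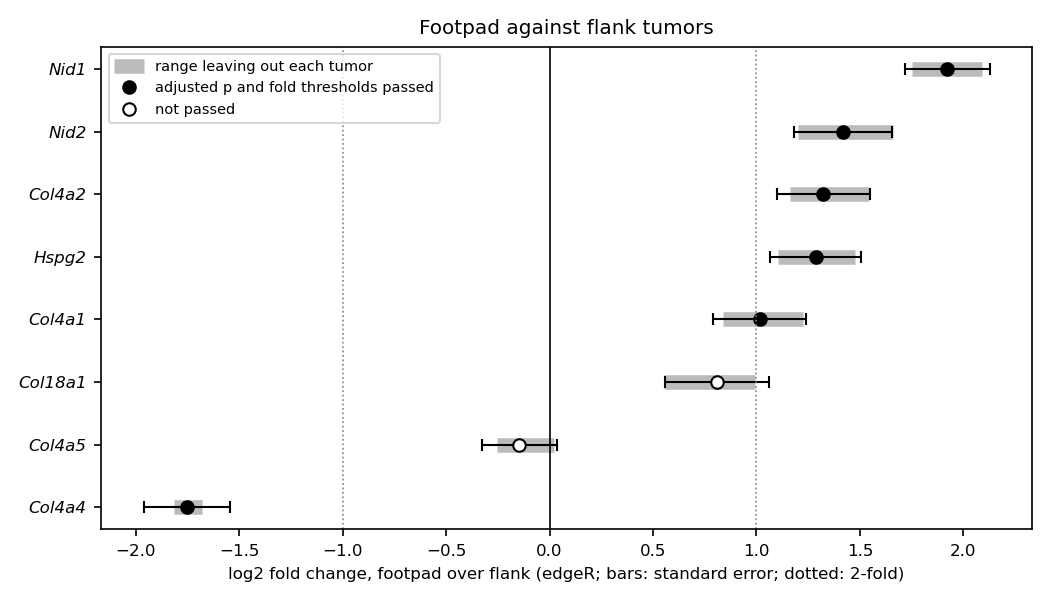
Log2 fold change of footpad over flank tumors from edgeR for the 8 genes tested, with the standard error as black bars and the range over the 6 fits that each leave out 1 tumor in grey. Filled points passed both thresholds, open points did not, and dotted lines mark a 2-fold change. Nid1 lies furthest to the right at 1.92 and Col4a4 furthest to the left at -1.75.

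Upstream sequence of Nid1 and Hspg2, which changed and had a window at hand, is shown for comparison with the start regions above. Capitals mark GGGCGG, the core of an SP1 site, and CCAAT, on either strand. The Nid1 stretch is chr13:13437352-13437550 and the Hspg2 stretch is chr4:137468553-137468750, both on the plus strand of GRCm38.
Nid1: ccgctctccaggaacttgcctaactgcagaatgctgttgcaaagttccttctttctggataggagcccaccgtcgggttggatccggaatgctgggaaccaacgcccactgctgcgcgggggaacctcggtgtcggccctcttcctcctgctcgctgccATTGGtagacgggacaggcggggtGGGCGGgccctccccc
Hspg2: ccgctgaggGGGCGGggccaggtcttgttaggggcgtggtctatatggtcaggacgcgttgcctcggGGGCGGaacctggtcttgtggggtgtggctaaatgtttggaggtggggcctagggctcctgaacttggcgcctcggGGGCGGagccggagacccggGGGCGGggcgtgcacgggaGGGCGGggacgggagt
RefSeq windows of 300 bases were at hand for 8 of the 10 genes and not for Col4a3 and Nid2. GGGCGG was found 5 times in the window of Hspg2, 3 times in that of Col4a2 and in the first of the 2 windows of Col18a1, and 1 time in those of Col4a1, Nid1, Col4a5 and Col4a6. It was absent from that of Col4a4 and from the other window of Col18a1. Of all 32851 windows, which were not matched to these in G and C content, 35.7% held it. CCAAT was found 1 time in the windows of Col4a1, Col4a2, Nid1 and Col4a5 and in the first of Col18a1, and 37.4% of all windows held it. TATAAA was found in none of the windows of these genes, and 13.6% of all windows held it. Of the bases in the windows, 74.0% were G or C for Col4a1, 73.7% for Col4a2, 70.3% for Hspg2 and 64.7% for Nid1. Col4a4, which fell, was at 63.3%, Col18a1 at 63.3% and 59.7%, Col4a5 at 52.7% and Col4a6 at 48.3%. The median over all windows was 52.7%. The windows of Col4a1 and Col4a2 overlap, so they are not independent.

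Compared per length, the genes formed an order that differed between the sites. In footpad tumors Col4a1 had 108 FPKM, Col4a2 54.6, Hspg2 33.5, Col18a1 26.4, Nid1 13.8, Nid2 8.28, Col4a5 5.93 and Col4a4 0.282 FPKM, as means of 3 tumors. The ranges of neighbors in this order did not overlap. In flank tumors Col4a1 had 54.7 FPKM, Col4a2 22.4, Col18a1 15.6, Hspg2 14.1, Col4a5 6.51, Nid1 3.72, Nid2 3.15 and Col4a4 0.971 FPKM. There the ranges overlapped between Col4a2, Col18a1 and Hspg2 and between Nid1 and Nid2. Col4a5 was below both nidogens in every footpad tumor and above both in every flank tumor.

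Ratios within a tumor, which do not depend on how libraries are scaled against each other, were compared for 6 pairs of genes. The pairs were fixed by name, with earlier results of these data known. The FPKM ratio of Col4a1 to Col4a2 was 1.77, 2.05 and 2.15 in footpad tumors and 2.35, 2.42 and 2.56 in flank tumors. The ratio was thus lower in all footpad tumors, with a log2 difference of -0.30 (two-sided exact permutation test, p = 0.1, adjusted 0.15 over the 6 ratios). The ratio of Nid1 to Nid2 was 1.73, 1.60 and 1.67 in footpad tumors and 1.30, 1.45 and 0.909 in flank tumors, higher in all footpad tumors by 0.48 on the log2 scale (exact permutation p = 0.1). The ratio of Col4a5 to Col4a1 was 0.0390, 0.0715 and 0.0544 in footpad tumors and 0.174, 0.0903 and 0.121 in flank tumors, again without overlap (exact permutation p = 0.1). In CPM, Col4a1 was higher in footpad tumors, while Col4a5 overlapped between the sites. The ratio of Hspg2 to Col4a1 overlapped between the sites, with a log2 difference of 0.25 (exact permutation p = 0.2).

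Col4a1 was also set against genes outside the network. The FPKM ratio of Col4a1 to Col1a1, the major collagen gene of fibroblasts, was 1.09, 1.16 and 1.23 in footpad tumors and 17.8, 6.16 and 17.7 in flank tumors. All flank tumors had more Col4a1 relative to Col1a1, and footpad minus flank was -3.43 on the log2 scale (exact permutation p = 0.1, adjusted 0.15). Flank replicate 2, which had the most Col1a1 of the flank tumors, had the lowest ratio among them. The ratio of Col4a1 to Lamc1, the laminin gamma chain of most basement membranes, was 3.48, 2.84 and 3.33 in footpad tumors and 3.01, 2.78 and 1.93 in flank tumors, and the groups overlapped (log2 difference 0.34, exact permutation p = 0.2).

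**Figure D4:**
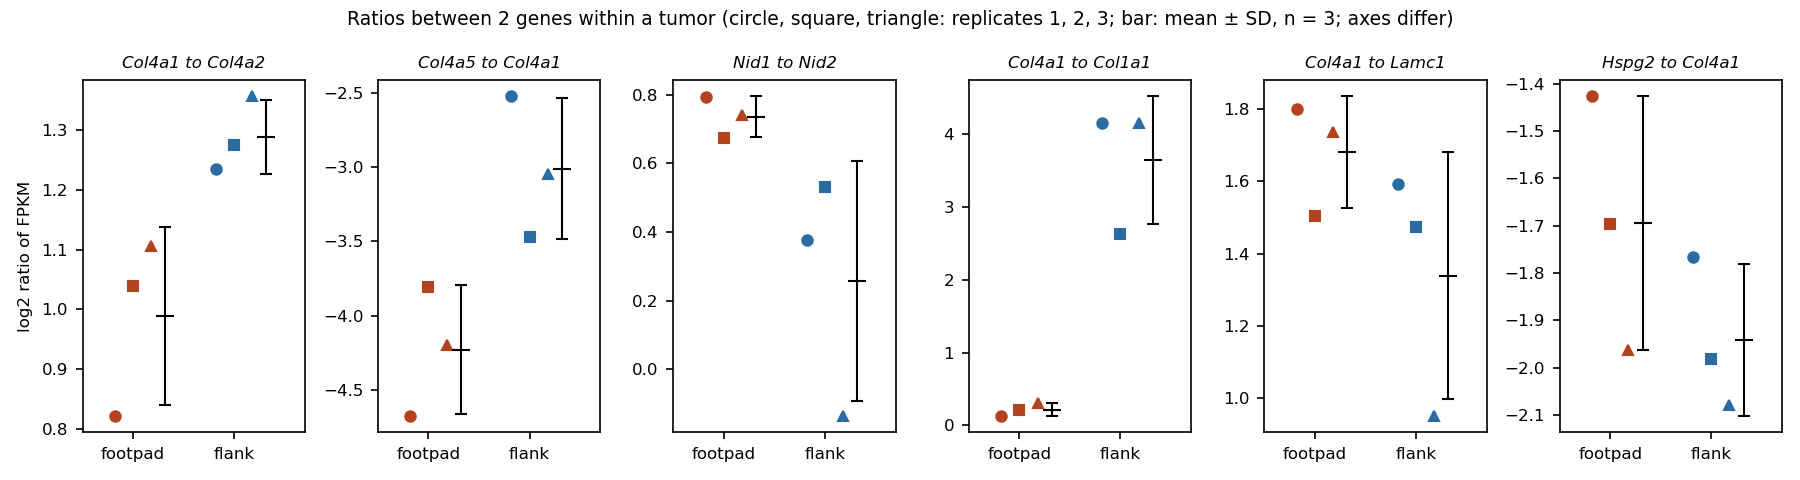
Log2 ratio of the FPKM of 2 genes within each tumor for 6 pairs, with footpad tumors in red, flank tumors in blue and the mean and SD of 3 tumors in black; each panel has its own axis, which does not start at 0. The sites do not overlap for Col4a1 to Col4a2, Col4a5 to Col4a1, Nid1 to Nid2 and Col4a1 to Col1a1, and overlap for the other 2 ratios.

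Laminins form the other network of the basement membrane. Of 11 laminin chains, 2 were higher in footpad tumors and 0 lower, against 2.89% and 0.872% of all genes tested. The median log2 fold change of the 11 chains was 0.64. Among them Lamb1, a beta chain of common laminins, was at 101 ± 22.1 CPM in footpad and 25.7 ± 8.29 CPM in flank tumors (SD, n = 3, log2 fold change 1.98, adjusted p = 0.0174, edgeR). Of 20 other basement membrane genes tested, Ntn1 and Col15a1 were higher, with log2 fold changes of 2.47 and 2.06, and Frem1, whose product anchors epidermis to dermis during development, was lower at -2.12 (adjusted p = 0.0139, edgeR). Frem1 was at 1.48, 2.13 and 1.84 CPM in footpad tumors and at 7.78, 8.69 and 7.24 CPM in flank tumors, with no overlap. Tinag had 0 reads in all tumors.

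Of the 20 genes that process, export or cross-link type IV collagen, 1 passed, against 2.89% of all genes passing upward and 0.872% downward. Pxdn, which encodes peroxidasin, the enzyme that cross-links type IV collagen trimers, was at 58.9, 45.4 and 61.6 CPM in footpad tumors and at 11.1, 15.6 and 11.4 CPM in flank tumors. Its groups did not overlap, and its log2 fold change was 2.12 ± 0.20 (SE, adjusted p = 0.00677, edgeR). Plod2, a lysyl hydroxylase, was at 138 ± 15.3 CPM in footpad and 273 ± 30.8 CPM in flank tumors (log2 fold change -0.98, adjusted p = 0.0213, edgeR), just short of the fold threshold. P3h4 (log2 fold change 1.74) and P4ha3 (3.80) did not pass (adjusted p = 0.0608 and 0.0613, edgeR). The median over the 20 genes was 0.02.

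Among 18 genes for the synthesis and turnover of heparan sulfate, the chain carried by perlecan and type XVIII collagen, Sulf1, an extracellular sulfatase, was higher (11.2 ± 2.22 against 2.46 ± 0.657 CPM, log2 fold change 2.18, adjusted p = 0.0141, edgeR). The next smallest adjusted p values were those of Ndst1 (0.0739, edgeR), Hs3st1 (0.0767) and Hs6st1 (0.102), with log2 fold changes of 0.63, -1.34 and 0.55. Over all genes tested, 2.89% passed upward and 0.872% downward, beside which the counts of this and the next lists stand. Among 14 receptors, Adgrg6, an adhesion receptor that binds type IV collagen, was higher from a low level (0.954 ± 0.0979 against 0.146 ± 0.0957 CPM, log2 fold change 2.69, adjusted p = 0.0397, edgeR). The integrin genes Itgb3, Itga3 and Itga7 had log2 fold changes of 1.57, 1.27 and 1.33 and did not pass (adjusted p = 0.0740, 0.0927 and 0.112, edgeR). Of 17 proteases and inhibitors tested, Timp1, a metalloproteinase inhibitor, and Bmp1, a procollagen proteinase, were higher, with log2 fold changes of 1.54 and 1.16 (adjusted p = 0.0234 and 0.0154, edgeR), and Mmp7 had 0 reads. Of 11 fibril-forming collagen genes, 7 were higher and 1 lower, with a median log2 fold change of 2.77. Col1a1 and Col3a1 had the largest rises at 4.10 and 4.08, Col27a1 rose by 2.76, and Col2a1, the collagen of cartilage, fell by 2.71 on the log2 scale (adjusted p = 0.00677, edgeR).

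Genes outside the network were ranked by how closely their level followed that of Col4a1, as the root mean square difference of log2 CPM centred on the mean of the 6 tumors. The closest were Cda, Gm34375, Myd88, Sh3bp2 and Msrb3, at 0.0733 to 0.108. Among the network's own genes, Col4a2 was at 0.176 from Col4a1, Col18a1 and Hspg2 at 0.218, Nid2 at 0.333, Nid1 at 0.466, Col4a5 at 0.710 and Col4a4 at 1.40. For Col4a5 the closest genes were Tctex1d2, Cby1, Tmem87a, Nans and Psmd10, at 0.0596 to 0.0670, and no network gene came closer than 0.677. With 6 tumors and 17210 genes, close matches are to be found for many genes, and the ranking is a description.

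Endothelial markers were higher in footpad tumors as a sum. The 12 endothelial markers summed to 346 to 409 CPM in footpad tumors and 207 to 247 CPM in flank tumors. Of the 12, 9 had all footpad tumors above all flank tumors, 3 passed both thresholds and none was at 0. Over all genes tested, 17.5% had every footpad tumor above every flank tumor and 2.89% passed upward in edgeR. Pecam1 was at 67.5, 40.1 and 68.8 CPM in footpad tumors and at 22.9, 25.4 and 23.0 CPM in flank tumors (log2 fold change 1.31, adjusted p = 0.0253, edgeR). Over the 8 pericyte markers the sums were 154 to 200 against 75.3 to 142 CPM, and 2 passed, Pdgfrb and Cspg4, with log2 fold changes of 1.59 and 1.62. The median of the 8 was 0.33, 3 had all footpad tumors above all flank tumors, and Kcnj8 and Ndufa4l2 had log2 fold changes of -1.10 and -0.63 without passing. Within each site the endothelial sums put the tumors in the same order as the sums of the network genes. Flank replicate 1, lowest for the network genes, had the lowest endothelial sum and the highest pericyte sum of the flank tumors. Of 12 fibroblast markers 5 passed, with a median log2 fold change of 2.89. Their sums of 445 to 612 and 399 to 590 CPM overlapped. The most abundant of the 12, Gsn, Pcolce and Fbln5, had log2 fold changes of 0.42, 0.03 and -1.41 and did not pass in edgeR. DESeq2 called 6 of the 12 higher and 1, Fbln5, lower, against 6.71% and 2.05% of all genes. Dcn was at 33.6, 42.3 and 53.8 CPM in footpad tumors and at 1.55, 8.02 and 1.42 CPM in flank tumors. The part of these cells in the higher levels of the network genes was not tested.

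Markers of other cells were summed in the same way, and the counts that passed stand beside 2.89% of all genes passing upward in edgeR. The 10 macrophage markers summed to 211 to 265 CPM in footpad and 151 to 200 CPM in flank tumors, and 1 passed. The 7 Schwann cell markers summed to 276 to 289 and 209 to 296 CPM, and 1 passed. The 8 adipocyte markers summed to 17.9 to 26.3 CPM in footpad and 28.4 to 48.7 CPM in flank tumors, and none of the 4 tested passed in edgeR or DESeq2. The 8 neutrophil markers ranged from 6.75 to 353 CPM among footpad tumors and from 4.35 to 29.5 CPM among flank tumors. Their part in the differences was not tested either.

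**Figure D5:**
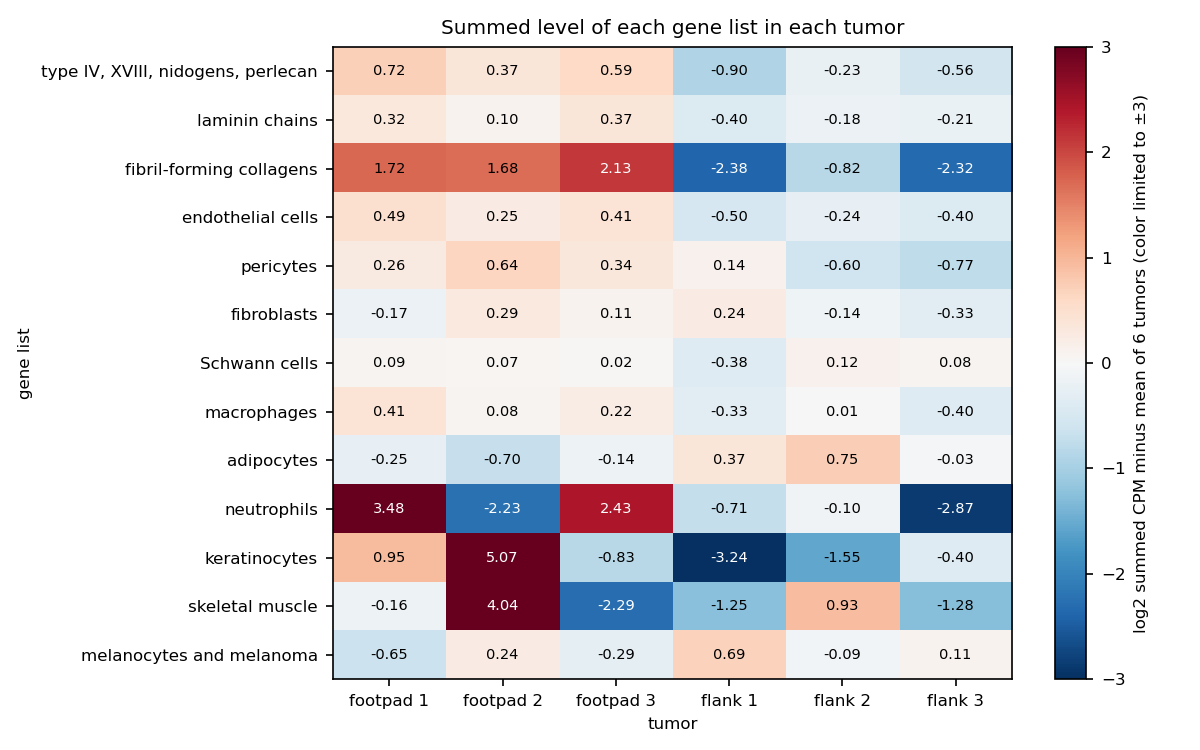
Summed CPM of each gene list in each tumor as log2, minus the mean of the 6 tumors, printed in each cell and coded from blue to red with the color limited to 3 in either direction. The network genes, laminin chains, fibril-forming collagens and endothelial markers are above their mean in every footpad tumor and below it in every flank tumor, and keratinocyte and muscle markers are at 5.07 and 4.04 in footpad replicate 2.

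Several calls were lost when 1 tumor was left out. Without footpad replicate 1, footpad replicate 3 or flank replicate 3, edgeR called 0 of the network genes in either direction, although at least 6 were higher and 1 was lower at an unadjusted p under 0.05 in each of these fits. Over all genes tested in these fits, between 10.8% and 11.5% were higher and between 6.71% and 8.14% lower at that p. The adjusted p of Nid1 then lay between 0.0558 and 0.0596 and that of Col4a4 between 0.0611 and 0.0763 (edgeR). Without flank replicate 1, Nid1 and Nid2 stayed higher and Col4a4 lower, and Col4a1, Col4a2 and Hspg2 did not pass (adjusted p = 0.0736, 0.0533 and 0.0611, edgeR). Over all 6 fits without a tumor the log2 fold change of Nid1 stayed between 1.75 and 2.09 and that of Col4a4 between -1.82 and -1.68.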

How the data were processed

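Total RNA of 3 footpad and 3 flank skin tumors was sequenced, 1 library per tumor, made with a stranded kit per the paper. Per the paper and the submitters' notes, reads were checked with FastQC 0.11.7, trimmed with Trimmomatic and aligned to mm10 with HISAT2 2.1.0; the counting program and its use of strand are not given in the sources used here. The authors deposited raw read counts for 45777 genes and FPKM values scaled for transcript length and depth.

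The deposited counts were fitted with edgeR 4.0.16 under R 4.3.3, using TMM factors, filterByExpr, the quasi-likelihood test and Benjamini-Hochberg adjustment over 17210 genes. The standard error is the log2 fold change divided by the square root of F. DESeq2 1.42.0, limma 3.58.1 on log2(FPKM + 1) and log2(FPKM + 0.1), other scalings and filters, a block by replicate number and leaving out each tumor were alternatives, and fits were tested on simulated data. Ratios and shares used scipy 1.17.1. All 10 genes matched RefSeq identifiers of GRCm38.p6, the build named mm10. Replicates of a site differed by more than sampling noise, with a chi-square of 63.1 to 581 per gene. Floors of 3 counts cover counting error only.

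The genes, lists and tests were chosen with earlier results of these data known. Of each list, the 2 called genes with the largest and the 2 with the smallest log2 fold change were named, or, with fewer than 2 called, those with the smallest adjusted p. Of marker lists, sums and a few genes from the start of the list were given, passing over Pdgfra ahead of Dcn and Tyr ahead of Tyrp1. Genes at 0 reads, Gsn, Pcolce, Fbln5, Cspg4, Kcnj8, Ndufa4l2 and Rtraf were named after their values were seen. The values of 1 laminin gene are not reported here.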

Additional observations from a re-analysis of the deposited data

How the results depend on the processing

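Under DESeq2, other size factors and a filter of 10 counts, the direction and call of all 8 genes were kept. The difference in the share of Col4a1 changed sign when counts per coding length were used (0.059 percentage points) and ranged from -1.60 to 0.607 without 1 tumor. Col4a5 changed sign without footpad replicate 1 (0.023). Col4a1 did not pass with limma on log2(FPKM + 0.1) (1.04) or log2(FPKM + 1) (1.02) or with no filter on low counts (1.00), and Col4a4 missed the fold threshold with limma on log2(FPKM + 1) (-0.62), where 0 network genes were called lower and 1 was lower at an unadjusted p under 0.05. Col4a4 kept its call with limma on log2(FPKM + 0.1) (-1.48), and its mean FPKM was 0.282 in footpad and 0.971 in flank tumors, below the added 1. The causes were not tested.

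Same-numbered tumors did not deviate together, with correlations of 0.0544, -0.0965 and -0.115, which gives no sign of pairing by number but does not show that they came from different mice. With a replicate block, edgeR called 0 network genes higher and 0 lower, and 0 of all genes, although 6 were higher and 1 lower at an unadjusted p under 0.05, as were 12.3% and 8.29% of all genes. The blocked log2 fold changes were 1.04 for Col4a1, 1.34 for Col4a2, -1.75 for Col4a4, 1.94 for Nid1, 1.46 for Nid2 and 1.29 for Hspg2.

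Without 1 tumor, 0 to 4 network genes were called higher and 0 to 1 lower, and the log2 fold change was 0.84 to 1.22 for Col4a1, 1.16 to 1.54 for Col4a2, -1.82 to -1.68 for Col4a4, -0.26 to 0.023 for Col4a5, 1.75 to 2.09 for Nid1, 1.20 to 1.66 for Nid2 and 1.11 to 1.48 for Hspg2. Over all genes, edgeR then called between 0 (without footpad replicate 3, where 2061 were higher and 1228 lower at an unadjusted p under 0.05) and 639 higher. Calls higher ranged from 0 to 3 for laminin chains, 0 to 5 for other components (lower 0 to 1), 0 to 2 for processing genes (lower 0 to 1), 0 to 1 for heparan sulfate genes (lower 0 to 1), 0 to 1 for receptors, 0 to 4 for proteases and inhibitors and 0 to 7 for fibril-forming collagens (lower 0 to 1).

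DESeq2 called 4 of 11 laminin chains, 8 of 20 other components and 3 of 20 processing genes higher. It also called 4 of 14 receptors and 5 of 17 proteases or inhibitors higher. Called lower were 2 of the 20 other components and 1 of 18 heparan sulfate genes. Over all genes DESeq2 called 6.71% higher and 2.05% lower, against 2.89% and 0.872% with edgeR. With 3 tumors per site the exact tests could not go below 0.1, and Col4a3 and Col4a6 had too few reads to compare.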
